A study of Mus musculus with 4 samples.

Results

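The chemokine ligands are the small secreted or membrane-bound proteins that direct the movement of leukocytes, and their transcripts were followed in regenerating mouse liver. Members were all probe sets with a single platform gene symbol beginning with Ccl or Cxcl and a number, or equal to Cx3cl1. The rule took 50 of 45101 probe sets, which named 32 of 18193 genes. A further probe set that the platform assigns to several Ccl21 genes at once was left out. A probe set was called near background where its mean signal over the 4 arrays was under 11.6, the median over all probe sets. By this measure 32 member probe sets were measured and 18 were near background, and 21 of the 32 genes had at least 1 measured probe set.

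The OGFRL1 livers (n = 2 arrays) came from mice that had received human bone marrow mesenchymal stem cells expressing OGFRL1, and the EGFP livers, the controls (n = 2 arrays), from mice whose grafted cells of that type expressed EGFP, a green fluorescent protein. All mice were BALB/c nu/nu, a nude strain without mature T cells, and all had chronic liver injury from 23 doses of carbon tetrachloride at 0.25 ml/kg. Each received 1000000 cells into the spleen and underwent partial hepatectomy on day 21, and regenerating liver was collected 8 days after that operation. Every group thus shared the injury, the human cell graft and the surgery, and neither an uninjured liver nor a liver without a graft was analysed here. The labels give neither the age or sex of the mice nor the promoter of the transgenes, and whether each array stands for its own mouse is not stated.

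Chemokines signal through G protein-coupled receptors on leukocytes and are grouped by the spacing of their first cysteines into the CC, CXC, C and CX3C families. Inflammatory members are made on demand by macrophages, endothelium, stellate cells and injured hepatocytes after signals such as TNF, IL-1 and interferon-gamma, and they recruit monocytes, neutrophils, T cells and NK cells. Homeostatic members are made steadily by stromal and epithelial cells and place lymphocytes and progenitors in their niches. Atypical receptors do not signal through G proteins, and several of them bind chemokines and remove them from tissue. The probe sets are of mouse sequence, so transcripts of the grafted human cells were not measured by design, and whether they bind these probes was not tested.

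The 4 arrays had median signals of 11.57 to 12.46, and the OGFRL1 pair had a Pearson correlation of 0.984 and the EGFP pair one of 0.972, as a description across the 11942 genes tested. All 10 hepatocyte markers were measured and all were lower on both OGFRL1 arrays than on both EGFP arrays, as were 20.5% of all genes, with a median log2 difference of -0.53. The spike-in controls also differed between the groups on the log2 scale, Cre by a mean of -0.43 over 4 probe sets and Bio by -0.32 over 14. The mean of OGFRL1 2 minus OGFRL1 1 was 0.16 for Cre and 0.30 for Bio, and that of EGFP 1 minus EGFP 2 was 0.2 and -0.07. The median log2 difference between the groups over all genes tested was 0.04.

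None of the 21 chemokine ligand genes passed the threshold of a limma adjusted p of 0.05, where 0.511% of all genes tested did (0.360% higher and 0.151% lower in OGFRL1 livers). At an unadjusted p under 0.05 there were 4 genes, against 15.3% of all genes. Cxcl14 and Ccl9 were on the higher side, where 9.01% of all genes lay, and Ccl25 and Ccl28 on the lower side, where 6.28% lay. These 4 were also the members whose groups did not overlap, though Ccl28 passed the filter only through the EGFP arrays. Over all genes tested 47.5% did not overlap, 27.0% with both OGFRL1 arrays above and 20.5% with both below. The median log2 difference, OGFRL1 minus EGFP, was -0.001 over the 21 genes, with 10 above 0. In the other 17 members the groups overlapped, and their arrays are described by the receptors they act on.

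**Figure D1:**
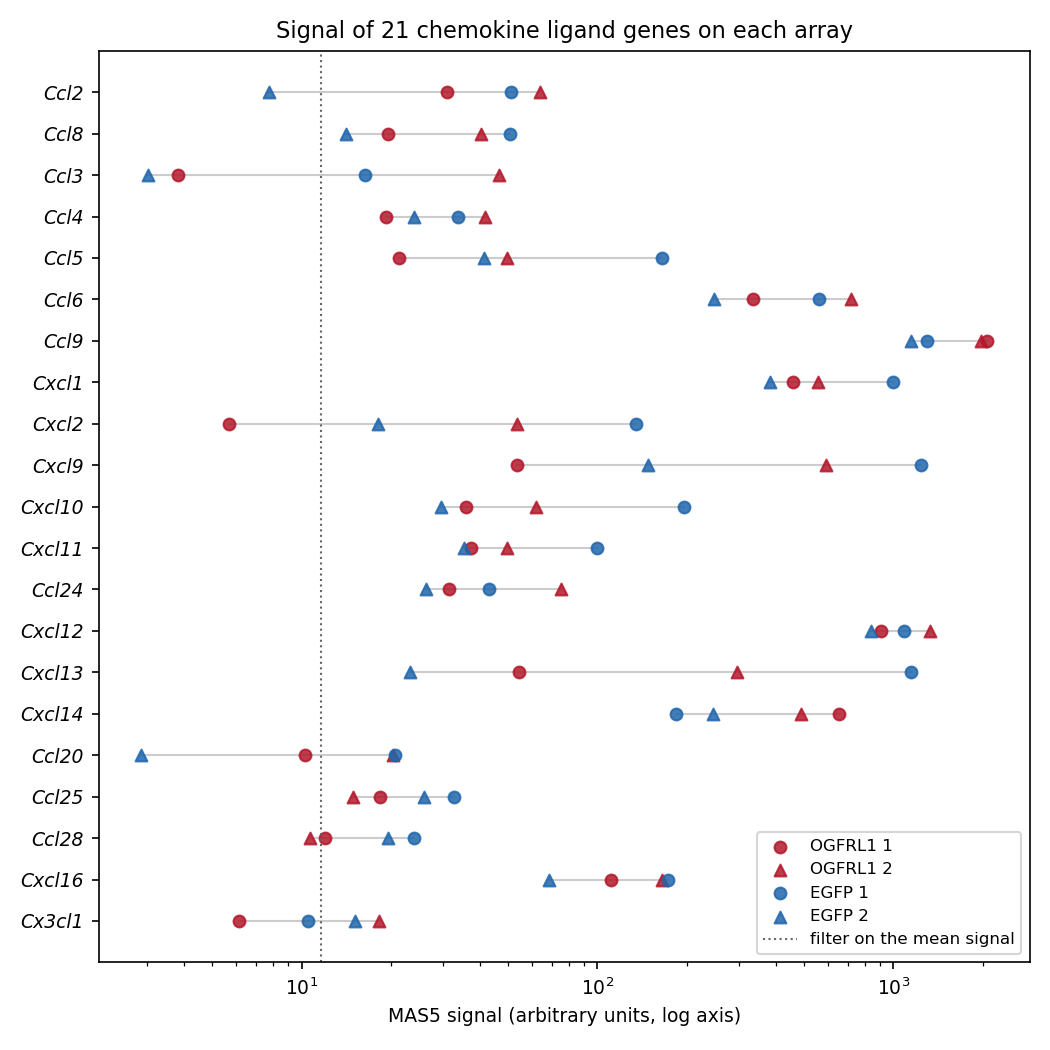
MAS5 signal (log axis) of the 21 chemokine ligand genes with a measured probe set, 1 point per array, with OGFRL1 arrays in red and EGFP arrays in blue. Cxcl14 and Ccl9 have both OGFRL1 arrays above both EGFP arrays, while Cxcl13 runs from 23.2 on EGFP 2 to 1150 on EGFP 1 with both OGFRL1 arrays in between.

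Cxcl14, a CXC chemokine of epithelial and stromal cells, had signals of 654 and 488 on OGFRL1 arrays 1 and 2, against 184 and 246 on EGFP arrays 1 and 2. Both OGFRL1 values were well above both EGFP values, and the gap between the groups was wider than that within either. The log2 difference was 1.39 ± 0.21 (SE), with a 95% interval of 0.89 to 1.90 and a limma adjusted p of 0.0544. The threshold was passed with arrays scaled to equal medians (adjusted p = 0.0434) and with 4 times the pseudocount (adjusted p = 0.0493), and over the other settings, crossed replicate numbers aside, the adjusted p ran from 0.00654 to 0.353. The other measured probe set of the gene gave 78.3 and 72.4 on the OGFRL1 arrays and 56.0 and 54.4 on the EGFP arrays, a smaller log2 difference of 0.42 in the same direction. As the mean over the probe sets, Cxcl14 had a log2 difference of 0.91.

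Ccl9, a rodent CC chemokine that binds CCR1 on myeloid cells, had signals of 2077 and 1982 on OGFRL1 arrays 1 and 2 and of 1294 and 1142 on EGFP arrays 1 and 2. It was higher on both OGFRL1 arrays by a margin larger than the spread within the groups. The log2 difference was 0.74 ± 0.14 (SE), with a 95% interval of 0.41 to 1.06 and a limma adjusted p of 0.0762, which ran from 0.00885 to 0.611 over the other settings, crossed replicate numbers aside. A further probe set with 1251 and 1191 on the OGFRL1 arrays and 817 and 659 on the EGFP arrays gave a log2 difference of 0.73. The bound of the interval nearest to 0 lay above 0 for both Cxcl14 and Ccl9, but neither passed the adjustment over all genes.

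Most markers of stellate cells and myofibroblasts, the matrix-producing cells of liver, were higher on both OGFRL1 arrays, as these 2 genes were. None of the 9 passed the test. All 9 were measured, and 8 had both OGFRL1 arrays above both EGFP arrays, as did 27.0% of all genes, while Lrat had both below (log2 difference -0.08 ± 0.17 SE). Their summed signals were 3731 and 4595 in OGFRL1 livers and 2267 and 2666 in EGFP livers. Among them the collagen gene Col1a1 was at 119.6 and 176.9 in OGFRL1 livers and at 26.8 and 42.1 in EGFP livers. Their part in the values of Cxcl14 and Ccl9 was not tested. In such bulk tissue, more cells of a type and more RNA per cell cannot be told apart.

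Ccl25, the CCR9 ligand of thymus and gut, and Ccl28, a mucosal ligand of CCR10, were dim and lower in OGFRL1 livers. Ccl25 had signals of 18.5 and 14.9 on the OGFRL1 arrays and 32.8 and 25.9 on the EGFP arrays. Its log2 difference was -0.70 ± 0.29 (SE, limma adjusted p = 0.323). Its other measured probe set gave 16.1 and 14.3 on the OGFRL1 arrays against 15.5 and 18.3 on the EGFP arrays, and there the groups overlapped. Ccl28 had 12.0 and 10.7 on the OGFRL1 arrays and 24.0 and 19.6 on the EGFP arrays (log2 difference -0.76 ± 0.32 SE, limma adjusted p = 0.322), while a further measured probe set overlapped between the groups with 14.6 and 7.73 on the OGFRL1 arrays against 9.12 and 21.9 on the EGFP arrays. With OGFRL1 signals close to the background mark, the log2 differences understate any change.

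Ligands of CXCR3, the receptor of activated T cells and NK cells, are induced by interferon-gamma, and all 3 were measured. Cxcl9 had signals of 53.7 and 591 on OGFRL1 arrays 1 and 2 and of 1236 and 149 on EGFP arrays 1 and 2. Cxcl10 had 35.9 and 61.8 on the OGFRL1 arrays and 197 and 29.5 on the EGFP arrays. Cxcl11 had 37.3 and 49.4 on the OGFRL1 arrays and 99.6 and 35.3 on the EGFP arrays. In each of these genes EGFP 1 was highest and OGFRL1 2 came next, so the groups overlapped. The ratio of EGFP 1 to EGFP 2 was 8.32 for Cxcl9, 6.67 for Cxcl10 and 2.82 for Cxcl11, and OGFRL1 2 exceeded OGFRL1 1 by 11-fold in Cxcl9.

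The log2 differences between the groups were -1.24 ± 1.27 (SE) for Cxcl9, -0.68 ± 0.77 for Cxcl10 and -0.45 ± 0.45 for Cxcl11, with limma adjusted p-values of 0.705, 0.735 and 0.700. The 95% interval of Cxcl9 ran from -4.28 to 1.81, so with 2 arrays a group neither direction was set apart from 0. The direction depended on which EGFP array was used. Without EGFP 1 the log2 differences were 0.28, 0.62 and 0.26 for Cxcl9, Cxcl10 and Cxcl11, and without EGFP 2 they were -2.75, -1.98 and -1.15. Without OGFRL1 1, Cxcl9 was at 0.45.

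Ligands of CXCR2, the main neutrophil receptor of this family, showed the same order of arrays where they were measured. Cxcl1, a neutrophil attractant that hepatocytes also make, had signals of 456 and 556 on OGFRL1 arrays 1 and 2 against 994 and 383 on EGFP arrays 1 and 2. Cxcl2, its close relative from macrophages, had 5.67 and 53.4 on the OGFRL1 arrays against 134 and 18.2 on the EGFP arrays. EGFP 1 was highest in both genes and OGFRL1 2 was next, while the lowest array was EGFP 2 in Cxcl1 and OGFRL1 1 in Cxcl2. The other Cxcl1 probe sets had the same order of the highest and next array, with 295 and 384 on the OGFRL1 arrays against 611 and 336 on the EGFP arrays, and with 130 and 155 on the OGFRL1 arrays against 254 and 131 on the EGFP arrays.

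The log2 difference between the groups was -0.29 ± 0.41 (SE) for Cxcl1 and -1.26 ± 1.07 for Cxcl2 (limma adjusted p = 0.791 and 0.640). Without EGFP 1 these were 0.39 and 0.07, and without EGFP 2 they were -0.98 and -2.59. Cxcl2 was at 0.06 without OGFRL1 1. Cxcl3 and Cxcl5, further CXCR2 ligands, and Cxcl15, known from mouse lung, were near background on all arrays, with signals of 3.94 to 6.03 for Cxcl3, 3.39 to 5.47 for Cxcl5 and at most 7.30 for Cxcl15.

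Cxcl1, Cxcl2 and Cxcl3 lie close together on chromosome 5 with Cxcl5 and Cxcl15, and Cxcl9, Cxcl10, Cxcl11 and Cxcl13 lie further along that chromosome. RefSeq annotates Cxcl11 as a transcribed pseudogene in C57BL/6J, a strain other than the one studied here. The 250 bases before each start site are shown for these neighbours because they share a motif while Cxcl3 was near background, and for Cxcl10, Ccl9 and Cxcl14 to set members high on EGFP 1 beside those high on both OGFRL1 arrays. Sequences are from RefSeq, 5′ to 3′ on the strand of the gene. Capitals mark matches on either strand to the letters GGGNNNTTCC (the NF-kB type), GAAANNGAAA (the interferon-stimulated response element type) or TTCNNNGAA (the STAT-binding GAS type), and a run longer than the motif holds overlapping matches.
Cxcl1 (GRCm38.p6 chr5:90890995-90891244, plus strand): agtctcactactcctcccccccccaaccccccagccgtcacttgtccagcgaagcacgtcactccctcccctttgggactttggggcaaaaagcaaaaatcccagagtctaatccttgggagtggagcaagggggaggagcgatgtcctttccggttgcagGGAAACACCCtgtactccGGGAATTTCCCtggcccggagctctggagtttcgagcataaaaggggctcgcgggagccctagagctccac
Cxcl2 (GRCm38.p6 chr5:90903649-90903898, plus strand): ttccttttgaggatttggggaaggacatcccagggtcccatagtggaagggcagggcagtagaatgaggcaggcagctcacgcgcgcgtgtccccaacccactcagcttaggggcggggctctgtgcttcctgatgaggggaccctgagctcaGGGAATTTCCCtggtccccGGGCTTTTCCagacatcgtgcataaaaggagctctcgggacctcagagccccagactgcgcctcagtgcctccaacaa
Cxcl3 (GRCm38.p6 chr5:90785851-90786100, plus strand): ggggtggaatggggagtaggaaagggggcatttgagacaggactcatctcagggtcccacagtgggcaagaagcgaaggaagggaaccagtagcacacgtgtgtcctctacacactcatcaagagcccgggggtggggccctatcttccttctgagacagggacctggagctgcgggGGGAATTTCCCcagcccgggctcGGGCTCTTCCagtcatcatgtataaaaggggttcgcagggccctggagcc
Cxcl10 (GRCm38.p6 chr5:92348890-92349139, minus strand): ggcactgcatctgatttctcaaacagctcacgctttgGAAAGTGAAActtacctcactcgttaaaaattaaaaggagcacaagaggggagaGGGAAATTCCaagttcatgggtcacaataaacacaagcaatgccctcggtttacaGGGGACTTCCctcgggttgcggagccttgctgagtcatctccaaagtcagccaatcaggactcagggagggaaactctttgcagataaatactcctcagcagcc
Ccl9 (GRCm38.p6 chr11:83578637-83578886, minus strand): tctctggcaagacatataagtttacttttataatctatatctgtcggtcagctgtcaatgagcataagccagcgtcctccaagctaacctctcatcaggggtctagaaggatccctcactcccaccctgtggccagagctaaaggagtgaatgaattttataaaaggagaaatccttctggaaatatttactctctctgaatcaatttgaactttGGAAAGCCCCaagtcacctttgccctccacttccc
Cxcl14 (GRCm38.p6 chr13:56296552-56296801, minus strand): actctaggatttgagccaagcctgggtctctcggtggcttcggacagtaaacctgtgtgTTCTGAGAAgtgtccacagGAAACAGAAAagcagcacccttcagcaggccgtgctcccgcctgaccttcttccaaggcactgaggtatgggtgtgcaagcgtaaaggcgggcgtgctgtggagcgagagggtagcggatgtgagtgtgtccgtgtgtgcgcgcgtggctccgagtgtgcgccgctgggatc

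The windows of Cxcl1, Cxcl2 and Cxcl3 each held the run GGGAATTTCCC and a further NF-kB type match. In Cxcl10 there were 2 such matches and 1 interferon-response type match, in Ccl9 a single NF-kB type match, and in Cxcl14 an interferon-response type and a GAS type match. RefSeq windows were found for 22 of the 32 member genes, of which 7 (31.8%) held the NF-kB type letters, against 5.31% of 27025 genes with a window. Ccl20 and Ccl1 were the remaining members with the NF-kB type. The interferon-response type was found in 2 of the 22 (9.09%, against 3.46% of all genes) and the GAS type in 2, Cxcl14 and Ccl17 (9.09%, against 8.13%). Cxcl3 was near background, and its window holds the same run as that of Cxcl1. A match says only that the letters are present, and binding was not measured.

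Cxcl13, the CXCR5 ligand that attracts B cells, was the member with the widest spread. Its signals were 54.4 and 296 on OGFRL1 arrays 1 and 2 and 1150 and 23.2 on EGFP arrays 1 and 2, a 49.6-fold ratio between the EGFP arrays. A further probe set gave 48.4 and 193 on the OGFRL1 arrays against 488 and 22.2 on the EGFP arrays. Both probe sets placed EGFP 1 highest and EGFP 2 lowest with the OGFRL1 arrays between them. The log2 difference of -0.41 ± 1.65 (SE, limma adjusted p = 0.939) was 2.30 without EGFP 1, -3.13 without EGFP 2 and 0.77 without OGFRL1 1. Of the B cell markers, Cd79b was at 18.1 and 18.8 in OGFRL1 livers against 24.4 and 14.2 in EGFP livers, and the 3 others with a probe set (Ms4a1, Cd79a and Pax5) were near background.

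Cxcl12, the CXCR4 ligand of liver stroma and endothelium, varied far less. It had signals of 911 and 1333 on the OGFRL1 arrays and 1088 and 842 on the EGFP arrays. Its other measured probe set was nearly level, with 825 and 866 on the OGFRL1 arrays and 861 and 853 on the EGFP arrays. The log2 difference was 0.20 ± 0.22 (SE, limma adjusted p = 0.724) for the first probe set, with a 95% interval of -0.33 to 0.73, and -0.02 for the other. It was -0.32 as the mean over all 3 probe sets, of which 1 was near background, and -0.07 without OGFRL1 2.

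The transmembrane chemokines were Cxcl16, the CXCR6 ligand of macrophages and endothelium, and Cx3cl1, the CX3CR1 ligand. Cxcl16 had signals of 111 and 165 on the OGFRL1 arrays and 173 and 68.4 on the EGFP arrays, and its further probe set had 107 and 153 on the OGFRL1 arrays against 178 and 74.7 on the EGFP arrays. The groups overlapped in both, with a log2 difference of 0.30 ± 0.42 (SE, limma adjusted p = 0.792), which was 0.95 without EGFP 1, -0.35 without EGFP 2 and -0.11 without OGFRL1 2. Cx3cl1 lay just above the background mark, with 6.15 and 18.3 on the OGFRL1 arrays and 10.5 and 15.2 on the EGFP arrays, and its 3 other probe sets were near background.

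CC chemokines that act on monocytes and macrophages formed the largest group of measured members, with 7 of 9 listed genes. Ccl2, the main CCR2 ligand, had signals of 31.1 and 63.8 on OGFRL1 arrays 1 and 2 against 50.9 and 7.79 on EGFP arrays 1 and 2. Ccl5, an attractant of T cells and monocytes, had 21.4 and 49.3 on the OGFRL1 arrays against 165 and 41.4 on the EGFP arrays. Ccl6, a rodent CCR1 ligand, had 336 and 719 on the OGFRL1 arrays against 559 and 248 on the EGFP arrays. OGFRL1 2 and EGFP 1 were the 2 highest arrays in each of these genes. EGFP 2 was lowest in Ccl2 and Ccl6, and OGFRL1 1 was lowest in Ccl5.

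Ccl8, a CCR8 ligand in mouse, had signals of 19.6 and 40.4 on the OGFRL1 arrays against 50.8 and 14.1 on the EGFP arrays. Ccl3, an inflammatory product of macrophages, had 3.84 and 46.4 on the OGFRL1 arrays against 16.4 and 3.04 on the EGFP arrays. Ccl4, a close relative of Ccl3, had 19.3 and 41.7 on the OGFRL1 arrays against 33.8 and 24.1 on the EGFP arrays. Here too OGFRL1 2 and EGFP 1 were the 2 highest arrays, and Ccl3 was measured only through them. The second Ccl6 probe set gave 190 and 367 on the OGFRL1 arrays against 191 and 110 on the EGFP arrays.

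Between the groups the log2 difference was 0.96 ± 0.72 (SE) for Ccl2, 0.40 ± 0.46 for Ccl6, 0.75 ± 0.95 for Ccl3, 0.04 ± 0.57 for Ccl8 and -0.001 ± 0.385 for Ccl4, while Ccl5 was at -1.26 ± 0.64. Their limma adjusted p-values ran from 0.415 for Ccl5 to 0.999 for Ccl4. Without EGFP 1 the log2 difference was 2.09 for Ccl2, 0.98 for Ccl6, 1.55 for Ccl3, 0.86 for Ccl8 and 0.22 for Ccl4. Without EGFP 2 it was -0.18 for Ccl2, -0.18 for Ccl6, -0.05 for Ccl3, -0.77 for Ccl8 and -0.22 for Ccl4. Ccl5 stayed negative in both, at -0.31 without EGFP 1 and -2.22 without EGFP 2.

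Ccl24, an eosinophil attractant that binds CCR3, had signals of 31.6 and 75.6 on the OGFRL1 arrays and 43.1 and 26.2 on the EGFP arrays. Ccl20, the CCR6 ligand, had 10.2 and 20.4 on the OGFRL1 arrays and 20.7 and 2.87 on the EGFP arrays. Both overlapped between the groups, with log2 differences of 0.50 ± 0.43 (SE) for Ccl24 and 0.54 ± 0.67 for Ccl20 (limma adjusted p = 0.644 and 0.756). Ccl24 was at -0.09 without OGFRL1 2, and Ccl20 at -0.42 without EGFP 2.

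**Figure D2:**
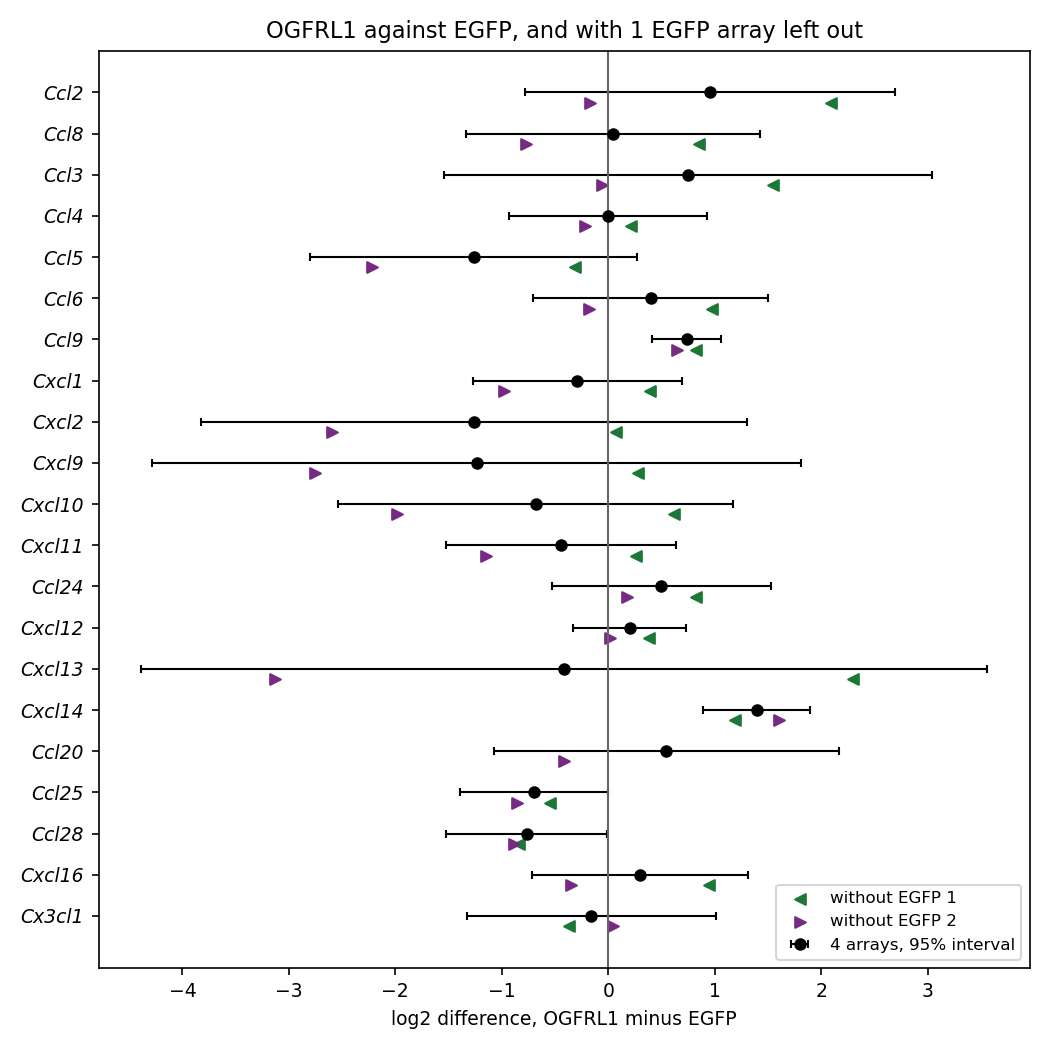
Log2 difference, OGFRL1 minus EGFP, of the 21 genes from all 4 arrays (black, with the 95% interval of the limma fit) and with EGFP 1 or EGFP 2 left out (triangles). Cxcl14 and Ccl9 stay on the higher side in all 3 fits, while Cxcl13 moves to 2.30 without EGFP 1 and to -3.13 without EGFP 2; Ccl20 has no value without EGFP 1, where it fell below the filter.

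Leaving out an EGFP array changed which members passed the threshold. Without EGFP 1, 3 of 20 chemokine genes passed (5.0% of all genes did, 2.92% higher and 2.08% lower), and these were Ccl2, Ccl9 and Cxcl14, all higher in OGFRL1 livers. Without EGFP 2, 7 of 22 passed (7.30% of all genes did, 3.82% higher and 3.48% lower), with Ccl9 and Cxcl14 higher and Ccl5, Cxcl1, Cxcl10, Cxcl11 and Cxcl13 lower. In these fits the lone EGFP array is assumed to vary like the OGFRL1 arrays. Ccl9 and Cxcl14 passed in both of these fits. Neither gene passed with an OGFRL1 array left out, where the spread is taken from the EGFP arrays. The log2 difference of Ccl9 was 0.83 without EGFP 1, 0.65 without EGFP 2, 0.70 without OGFRL1 1 and 0.77 without OGFRL1 2. For Cxcl14 it was 1.19, 1.60, 1.18 and 1.60 in the same order. As the groups of Ccl9 and Cxcl14 do not overlap, leaving out an array could not turn the direction.

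The differences within groups were larger for chemokine ligands than for most genes. Between OGFRL1 1 and OGFRL1 2 the median absolute log2 difference was 0.92 over the 21 members and 0.17 over all genes tested. Between EGFP 1 and EGFP 2 it was 1.37 over the members and 0.26 over all genes. A difference of more than 2-fold on this scale separated the OGFRL1 arrays for 8 of 21 members (38.1%), against 2.11% of all genes, and the EGFP arrays for 13 of 21 (61.9%), against 5.37%. Restricted to a mean signal of at least 46.6, where 12 members remained, the shares were 41.7% against 0.979% for the OGFRL1 arrays and 75.0% against 3.25% for the EGFP arrays.

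The direction of these differences was also shared. OGFRL1 2 was above OGFRL1 1 in 17 of 21 members, against 53.8% of all genes, and EGFP 1 was above EGFP 2 in 19 of 21, against 52.6%. The members that went the other way between the OGFRL1 arrays were Ccl9, Cxcl14, Ccl25 and Ccl28, and between the EGFP arrays they were Cxcl14 and Cx3cl1. In 10 of 21 members (47.6%) EGFP 1 was highest and OGFRL1 2 next, an order held by 10.8% of all genes. These counts describe 4 arrays and carry no test.

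Most markers of Kupffer cells and macrophages had this array order. All 11 were measured, EGFP 1 exceeded EGFP 2 in all 11 and OGFRL1 2 exceeded OGFRL1 1 in 10, and 8 had EGFP 1 highest with OGFRL1 2 next. Their summed signals were 6584 and 11230 in OGFRL1 livers and 12750 and 5615 in EGFP livers. Csf1r, the receptor for the macrophage growth factor, had 2028 and 3434 on the OGFRL1 arrays against 3204 and 1823 on the EGFP arrays, and C1qa, a complement subunit made by macrophages, had 846 and 1698 on the OGFRL1 arrays against 1881 and 716 on the EGFP arrays. Timd4, of resident Kupffer cells, had 42.8 and 82.0 on the OGFRL1 arrays against 189 and 44.9 on the EGFP arrays. None of the 11 passed the test between the groups, and their median log2 difference was -0.02. Their part in the chemokine values was not tested. The direction within groups was not limited to these markers. Of the 10 hepatocyte markers, all 10 were highest on EGFP 1 and 9 were higher on OGFRL1 2 than on OGFRL1 1. However, 0 of the 10 had OGFRL1 2 next after EGFP 1. The hepatocyte medians were 0.355 for EGFP 1 minus EGFP 2 and 0.101 for OGFRL1 2 minus OGFRL1 1, against 1.389 and 0.759 for the Kupffer cell markers.

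Markers of recruited monocytes and macrophages had summed signals of 3467 and 5608 in OGFRL1 livers and 6148 and 2373 in EGFP livers, with 9 of 10 measured and Itgam near background. Lyz2, a lysozyme of myeloid cells, made up most of these sums, with 2108 and 3747 on the OGFRL1 arrays against 4533 and 1400 on the EGFP arrays. OGFRL1 2 was above OGFRL1 1 in all 9 and EGFP 1 above EGFP 2 in 8, but EGFP 1 was the highest array in 4. All 9 had log2 differences above 0, where 6634 of all 11942 genes did. The 9 ran from 0.05 for Ms4a7 to 2.06 for Chil3, with a median of 0.59, and none passed the test. Both OGFRL1 arrays were above both EGFP arrays in 3 of these 9, near the 27.0% of all genes, and the rest overlapped. These 3 were Chil3, Trem2 and Gpnmb, genes of activated macrophages, with log2 differences of 2.06 ± 0.65 (SE), 1.04 ± 0.30 and 0.59 ± 0.18. Their part in the chemokine values was not tested either. Neutrophil markers had sums of 373 and 529 in OGFRL1 livers and 770 and 295 in EGFP livers. S100a8 had 184.5 and 286.2 in OGFRL1 livers against 462 and 134.9 in EGFP livers and made up much of these sums. OGFRL1 2 was above OGFRL1 1 in 3 of the 6 measured markers, while Elane, Mpo and Ngp had the opposite order, and Cxcr2, Camp and Ltf were near background. Of the T cell markers 1 of 5 was above the background mark, Cd8a, with 13.9 and 2.14 on the OGFRL1 arrays against 9.26 and 25.9 on the EGFP arrays, and Cd3e, Cd3d, Cd3g and Cd4 were near background. Of the NK cell markers Gzma, a granule protease, had 23.2 and 30.7 on the OGFRL1 arrays against 58.1 and 18.1 on the EGFP arrays, while Prf1, a pore-forming protein, had the opposite order between the EGFP arrays, with 10.9 and 18.03 on the OGFRL1 arrays against 6.96 and 14.7 on the EGFP arrays. Ncr1, Gzmb and Eomes were near background.

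**Figure D3:**
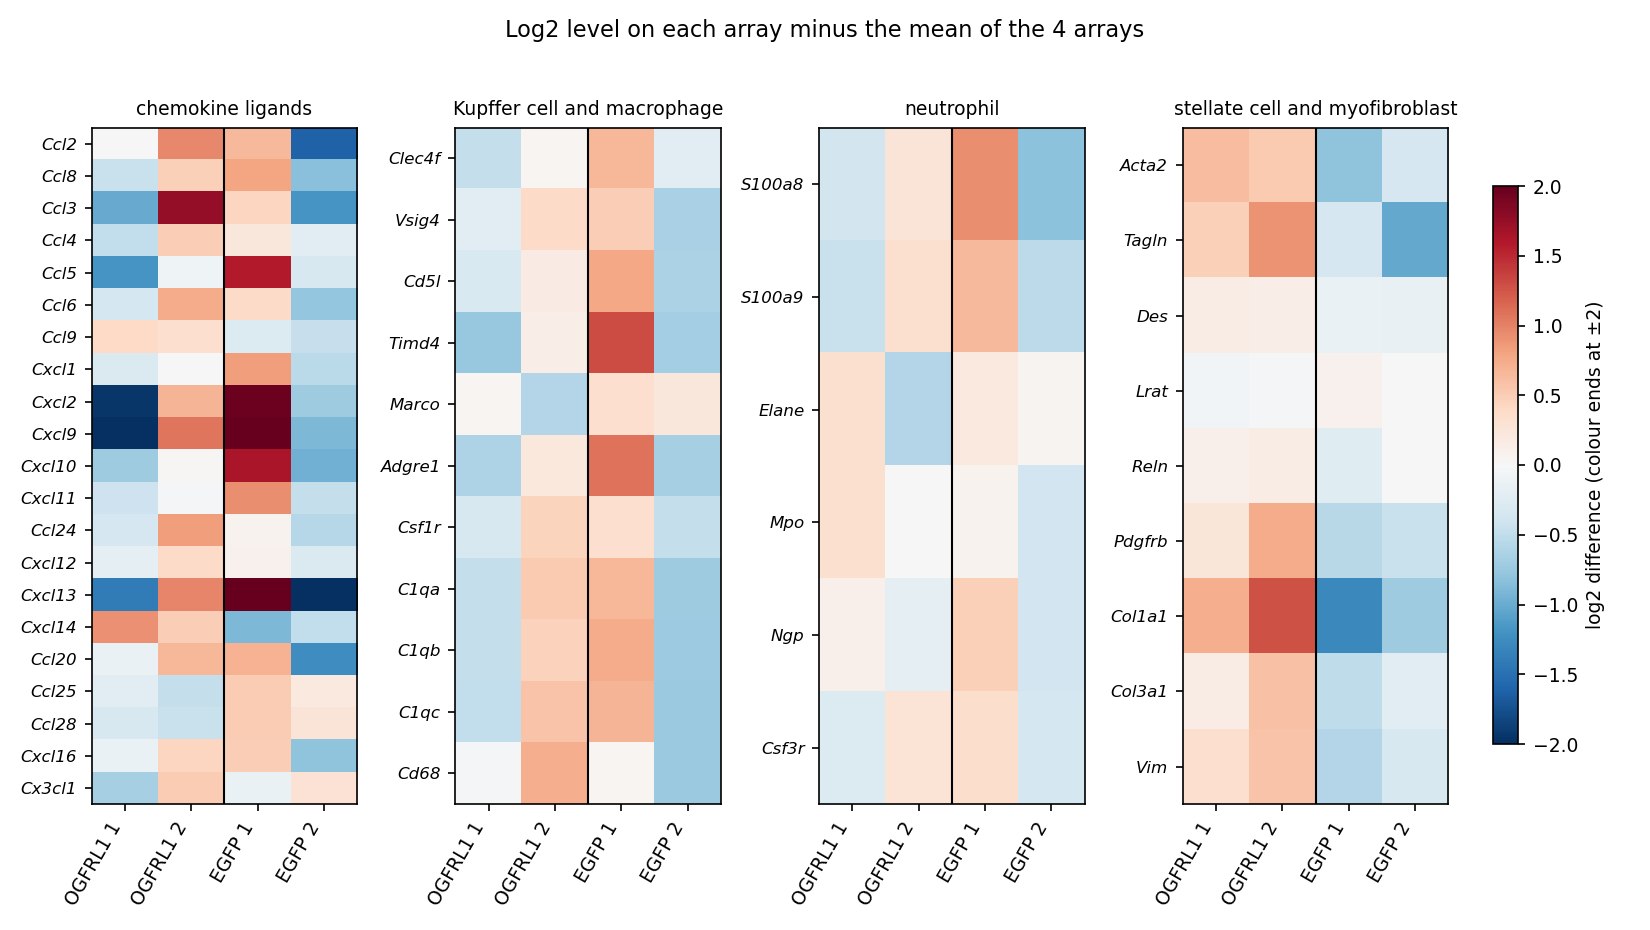
Log2 level of each gene on each array minus its mean over the 4 arrays, with OGFRL1 arrays left of the line and EGFP arrays right of it, for chemokine ligands and the measured markers of 3 cell types. Most Kupffer cell markers and most chemokines are high on EGFP 1 and OGFRL1 2 and low on EGFP 2 and OGFRL1 1. In contrast, Cxcl14, Ccl9 and 8 of 9 stellate cell markers are high on both OGFRL1 arrays.

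Cytokines and regulators that control chemokine transcription had 10 of 15 listed genes measured. None passed the test, 1 did at an unadjusted p under 0.05 (15.3% of all genes did), and the median log2 difference was -0.26. EGFP 1 was the highest array in 9 of the 10, against 28.4% of all genes. Il1b, an inflammasome cytokine, had signals of 58.7 and 139 on the OGFRL1 arrays against 216 and 67.7 on the EGFP arrays. Tnfaip3, an inhibitor that NF-kB induces, had 85.6 and 139 on the OGFRL1 arrays against 276 and 62.3 on the EGFP arrays, and Irf1, an interferon-induced transcription factor, had 252 and 278 on the OGFRL1 arrays against 734 and 276 on the EGFP arrays. Tnf was dim, with 1.70 and 11.3 on the OGFRL1 arrays against 27.2 and 14.35 on the EGFP arrays. Its log2 difference was -1.42 ± 0.59 (SE, limma adjusted p = 0.326). Both OGFRL1 signals of Tnf were under the background mark, so the gene passed the filter only through the EGFP arrays, where it was higher. Tnf was the regulator with an unadjusted limma p under 0.05, so that count rests on a gene near background in OGFRL1 livers. Ifng, Il6, Il4 and Il13 were near background.

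Among the signalling receptors, 16 of 18 listed genes had a probe set of their own and 5 were measured. None passed the test. Ccr1, the receptor of Ccl9 and Ccl6, had signals of 48.7 and 97.2 on the OGFRL1 arrays against 49.0 and 41.4 on the EGFP arrays, and Ccr2, the receptor of Ccl2, had 59.1 and 132 on the OGFRL1 arrays against 73.9 and 43.3 on the EGFP arrays. Both were highest on OGFRL1 2. Cx3cr1, the receptor of Cx3cl1 on monocytes and macrophages, had 81.7 and 72.4 on the OGFRL1 arrays against 47.25 and 53.8 on the EGFP arrays, with a log2 difference of 0.58 ± 0.19 (SE, limma adjusted p = 0.235). Cxcr4, the receptor of Cxcl12, was also higher on both OGFRL1 arrays, with 16.0 and 25.2 on the OGFRL1 arrays against 15.1 and 12.9 on the EGFP arrays (log2 difference 0.44 ± 0.34 SE, limma adjusted p = 0.604). Cxcr6, the receptor of Cxcl16, had 10.7 and 12.4 on the OGFRL1 arrays against 22.3 and 9.46 on the EGFP arrays. The 11 near background included Cxcr2, Cxcr5, Ccr6, Ccr7 and Ccr9, and Cxcr3 with 8.00 and 9.34 on the OGFRL1 arrays against 17.9 and 7.99 on the EGFP arrays.

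The atypical receptors were all measured, and 0 of 6 passed the test. At an unadjusted limma p under 0.05 there were 3, against 15.3% of all genes. Ackr4, a scavenger of Ccl19, Ccl21 and Ccl25, had signals of 50.4 and 64.0 on the OGFRL1 arrays against 16.0 and 36.1 on the EGFP arrays (log2 difference 1.12 ± 0.37 SE, limma adjusted p = 0.226). Ackr3, a scavenger of Cxcl12, had 70.6 and 59.4 on the OGFRL1 arrays against 40.0 and 46.7 on the EGFP arrays (0.55 ± 0.21). Ackr1, which binds many inflammatory chemokines on red cells and venules, had 71.0 and 66.8 on the OGFRL1 arrays against 140 and 91.8 on the EGFP arrays (-0.69 ± 0.23). In these 3 genes the groups did not overlap, a share of the 6 near the 47.5% of all genes. Ackr2, Ccrl2 and Gpr182 overlapped, with log2 differences of -0.47, 0.02 and -0.09.

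Chemokines with other symbols were Pf4 and Ppbp, which platelets store, and Xcl1. Pf4 had signals of 136 and 163 on the OGFRL1 arrays against 98.7 and 104 on the EGFP arrays (log2 difference 0.54 ± 0.17 SE, limma adjusted p = 0.211). Ppbp had 7.61 and 49.1 on the OGFRL1 arrays against 4.06 and 22.6 on the EGFP arrays, and Xcl1 had 2.14 and 13.2 on the OGFRL1 arrays against 26.2 and 8.18 on the EGFP arrays, each with overlapping groups.

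For 10 member genes more than 1 probe set was measured, which gives a check within each array. In 9 of them the probe sets had the same sign of the OGFRL1 minus EGFP difference, and the exception was Cxcl12. Between the groups, the probe sets of a gene differed in size more than in sign, as for Cxcl14, Cxcl9 and Cxcl13. For EGFP 1 minus EGFP 2 the sign differed in Ccl25 (0.30 and -0.20), Ccl28 (0.25 and -1.01) and Cxcl14 (-0.41 and 0.04). The counts of direction within groups rest on the brightest probe set of each gene. Probe sets of 1 gene come from the same RNA and are not replicates of a liver.

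**Figure D4:**
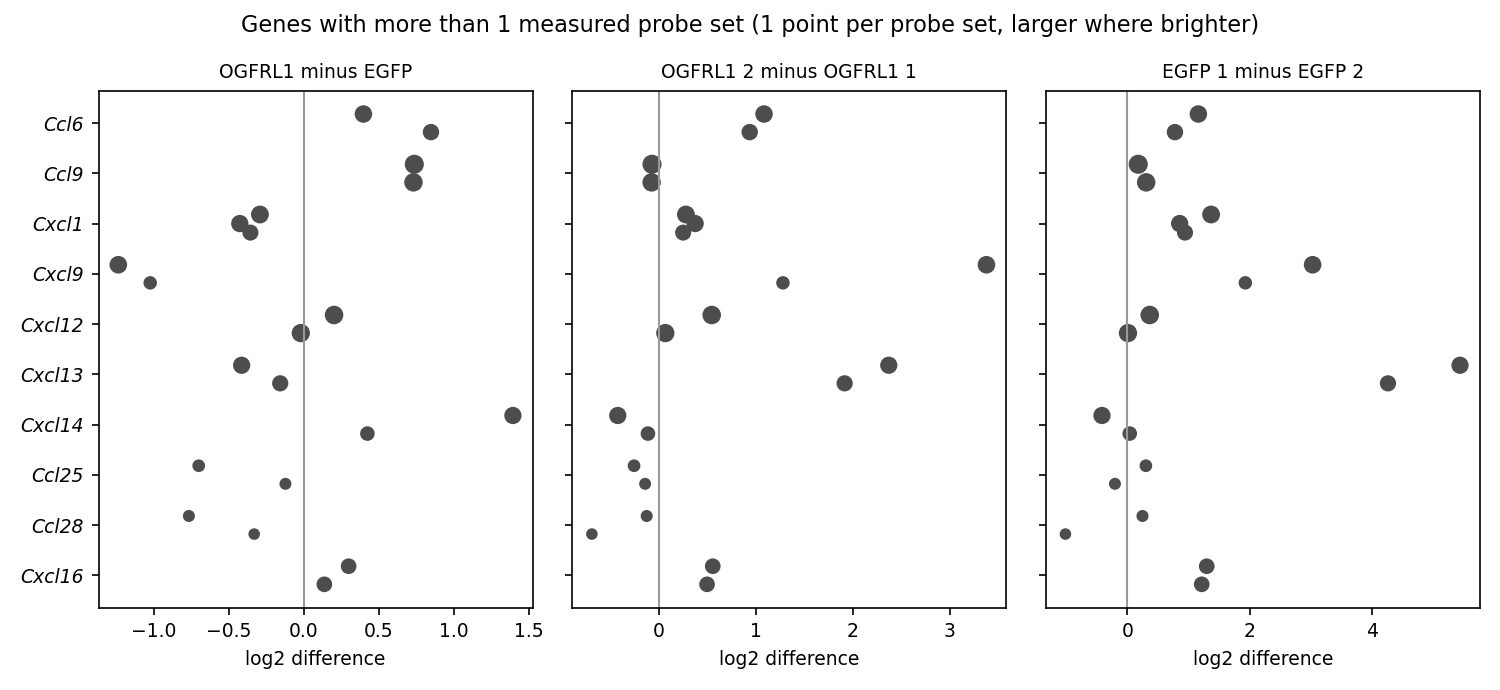
Log2 differences of the 10 genes with more than 1 measured probe set, 1 point per probe set, between the groups (left), between the OGFRL1 arrays (middle) and between the EGFP arrays (right). The 2 probe sets of Cxcl13 both show a difference of over 4 between the EGFP arrays, and those of Ccl9 coincide at 0.74 and 0.73 between the groups.

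The 11 genes near background were Ccl1, Ccl7, Ccl11, Ccl12, Ccl17, Ccl22, Ccl27a, Cxcl3, Cxcl5, Cxcl15 and Cxcl17. Their probe sets had signals between 0.345 and 17.99. The members nearest to the mark were Ccl7, a CCR2 ligand, just under it with 8.08 and 12.9 on the OGFRL1 arrays and 17.5 and 7.81 on the EGFP arrays, and Cx3cl1 just over it with a mean of 12.5. Ccl12, a mouse CCR2 ligand, had 5.42 and 10.4 on the OGFRL1 arrays against 17.99 and 0.564 on the EGFP arrays. Ccl17, a CCR4 ligand of dendritic cells, had 4.41 and 10.3 on the OGFRL1 arrays against 17.2 and 10.2 on the EGFP arrays. Of the 11 genes, Ccl7, Ccl12, Ccl17, Cxcl5 and Cxcl17 were highest on EGFP 1, Ccl11, Ccl22 and Cxcl3 on EGFP 2, Ccl1 and Ccl27a on OGFRL1 2 and the brighter Cxcl15 probe set on OGFRL1 1. At such signals no level or difference can be read from them.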

How the data were processed

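Expression was measured on 4 single-colour Affymetrix arrays with biotin-labelled cRNA from 100 ng of total RNA, per the labels' protocols. The deposited values are linear MAS5 signal intensities, 1 per probe set, per the submitters' processing notes; the MAS5 version, the scanner and detection calls are not given in the sources used here. The deposited intensities of every array had a mean of 100 with the lowest and highest 2% left out, so each array had been scaled as a whole, which does not equalise the shape of the distributions.

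Of 45101 probe sets, 34945 had 1 platform gene symbol, 932 had several, 9160 had none and 64 were controls. Signals were log2-transformed after adding 3.51, the 25th percentile of the whole table, which understates fold changes of dim genes. The brightest probe set on average stood for its gene and was kept where its mean was at least 11.6, and 11942 genes were fitted with limma 3.58.1 in R 4.3.3 (lmFit, eBayes with an intensity trend, 2-sided, Benjamini-Hochberg over all genes, threshold 0.05). The fit had 2 residual and 4.48 prior degrees of freedom. An exact permutation test of 2 arrays against 2 cannot go below 0.333 and was not used. The p-values measure the spread between these arrays, which may be partly technical, and the number of arrays limits the precision. Differences are OGFRL1 minus EGFP, and no library depth applies. The fit was tested on simulated data with independent noise for each gene and array. These data held no shift of an array shared by many genes, so they do not cover such shifts.

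The members, gene lists, markers and motifs were chosen with earlier results of these data known. By the rule for named genes, every member and every listed receptor, atypical receptor, other ligand and regulator could be named, and up to 4 of the brightest markers of each cell type; Timd4, Col1a1, Lrat, Chil3, Trem2, Elane and Mpo were chosen after their values were seen. Promoter windows and gene order came from RefSeq tables of GRCm38.p6, and motif shares are over genes with any window holding a match. Tables and figures used Python 3.11.15, pandas 2.3.3 and matplotlib 3.10.9.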

Additional observations from a re-analysis of the deposited data

How the results depend on the processing

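The count of chemokine ligand genes called was 0 and stayed 0 under a stricter filter, no filter, a floor, every probe set fitted, the mean over probe sets, quantile normalization, no intensity trend and the replicate block. It was 1 (Cxcl14) with equal medians and with 4 times the pseudocount, and 0 to 7 with an array left out. Of all genes, 61 were called, against 4 after quantile normalization, 94 with 4 times the pseudocount, 0 without a filter (2179 at an unadjusted limma p under 0.05), 21 with a stricter filter, 13 with the mean over probe sets, 0 without an intensity trend (1654 unadjusted) and 0 to 873 with an array left out, and the cause was not tested. With the replicate number as a block 59 genes and 0 chemokine genes were called, and no label ties a number to a common mouse or day. Same-numbered arrays deviated in opposite directions (correlation -0.276 across genes), and with the numbers crossed, an alternative chosen after seeing the data, 934 genes and 5 chemokine genes were called. The members' median log2 difference was -0.51 to 0.51 with an array left out, and its sign depended on which array that was. The groups of Ccl9, Cxcl14, Ccl25 and Ccl28 do not overlap, so leaving out an array could not turn the direction of the same probe set. These genes and Ccl5 kept their direction in every alternative run that included them, and the other 16 did not. With an array left out their log2 differences were: Ccl2 -0.17 to 2.09, Ccl20 -0.42 to 0.94, Ccl24 -0.0856 to 1.09, Ccl3 -0.0548 to 2.13, Ccl4 -0.50 to 0.49, Ccl6 -0.18 to 0.98, Ccl8 -0.77 to 0.86, Cx3cl1 -0.37 to 0.43, Cxcl1 -0.98 to 0.39, Cxcl10 -1.98 to 0.62, Cxcl11 -1.15 to 0.26, Cxcl12 -0.0716 to 0.48, Cxcl13 -3.13 to 2.30, Cxcl16 -0.35 to 0.95, Cxcl2 -2.59 to 0.0749, Cxcl9 -2.92 to 0.45. Ccl4 was also at 0.0449 with equal medians and 0.0118 with 4 times the pseudocount, Ccl8 at -0.0191 after quantile normalization and Cxcl12 at -0.32 as the mean over probe sets. Without an EGFP array the lone one is assumed to vary like the OGFRL1 arrays. Signals near background limit Ccl3, Ccl20, Ccl25, Ccl28 and Cx3cl1 most.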
